A study of Mus musculus with 18 samples.

Results

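The 10 genes Fos, Fosb, Jun, Junb, Egr1, Egr2, Atf3, Ier2, Dusp1 and Klf6 are immediate early genes whose transcripts are also known to appear while a tissue is taken apart into single cells. They were chosen by gene symbol. All 10 were found among the 54532 genes of a table of expression values for cells isolated from mouse liver, and all 10 passed the filter on low values in every comparison. The table covers primary hepatocytes (MPH), the parenchymal cells; biliary epithelial cells (BECs), the lining of the bile ducts; and Kupffer-like cells (Kupffer), the resident macrophages. Each came from mice with a sham operation (Sham) or with the common bile duct tied off (BDL), a surgical model of cholestasis, with 3 libraries in each of the 6 groups. Every library was made from cells isolated out of the liver, and none from tissue left whole, so sensitivity to dissociation could not be measured here. The sources used here do not give strain, age, time after ligation, isolation procedure or the number of mice behind a library. The p-values therefore measure the spread between these libraries, and cell type cannot be told apart from the procedure that isolated it.

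Immediate early genes are transcribed within minutes of a stimulus, from factors already in the cell, and their transcripts are short-lived. FOS and JUN proteins pair through leucine zippers to form the transcription factor AP-1, and ATF3 is a stress-induced relative that binds similar DNA and often represses. EGR1 and EGR2 are zinc finger factors downstream of MAP kinase and serum response factor, KLF6 is a zinc finger factor of the Kruppel-like family, IER2 is a small nuclear protein, and DUSP1 is a phosphatase that switches off MAP kinases. In liver these genes respond to partial hepatectomy, to bile acids and cytokines, and to the enzymes, warmth and handling of cell isolation.

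The gene models are compact. In GENCODE M21 on GRCm38 the 10 genes have a median span of 5938 bases and a median of 3.5 exon blocks, against 23329.5 bases and 9 blocks for 13060 expressed protein-coding genes. Levels are given as FPKM, fragments divided by transcript length and by library size, which allows them to be compared between genes of the same library. Jun, an intronless gene on chromosome 4 from 95049034 to 95052222, shares 232 exonic bases with Junos on the opposite strand, and Junb shares 173 with Prdx2. The sources used here do not say whether reads were counted by strand, so reads from those stretches cannot be assigned with certainty. The other members share no more than 11 exonic bases with a neighbour.

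The promoters are shown because the cyclic AMP response element (TGACGTCA) and the serum response element (the CArG box) are the textbook entry points of the signals that switch these genes on. RefSeq promoter entries on GRCm38.p6, from 250 bases before to 50 after a start site, were matched by symbol for 8 of the 10 genes, all but Egr1 and Ier2. Bases before the start site are printed for 5 of them, with capitals marking TGACGTCA or a word 1 base different from it, the CArG box and TATAAA.
Fos, chr12:85473640-85473889, plus strand: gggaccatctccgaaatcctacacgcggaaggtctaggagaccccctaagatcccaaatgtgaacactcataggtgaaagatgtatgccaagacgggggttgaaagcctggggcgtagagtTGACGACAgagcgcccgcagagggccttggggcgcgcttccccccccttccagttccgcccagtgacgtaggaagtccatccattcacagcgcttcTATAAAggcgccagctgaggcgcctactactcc
Jun, chr4:95052223-95052472, minus strand: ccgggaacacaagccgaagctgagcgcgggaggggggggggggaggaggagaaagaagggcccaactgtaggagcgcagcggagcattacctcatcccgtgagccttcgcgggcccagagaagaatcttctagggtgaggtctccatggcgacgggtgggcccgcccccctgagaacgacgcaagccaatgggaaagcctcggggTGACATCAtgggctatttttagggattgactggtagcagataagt
Egr2, chr10:67537619-67537868, plus strand, 1 of 5 entries: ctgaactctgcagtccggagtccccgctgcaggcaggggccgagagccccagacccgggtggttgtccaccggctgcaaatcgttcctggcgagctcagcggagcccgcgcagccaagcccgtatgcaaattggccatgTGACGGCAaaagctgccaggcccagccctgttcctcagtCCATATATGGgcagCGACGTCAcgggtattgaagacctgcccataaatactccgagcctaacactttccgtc
Atf3, chr1:191183334-191183583, minus strand: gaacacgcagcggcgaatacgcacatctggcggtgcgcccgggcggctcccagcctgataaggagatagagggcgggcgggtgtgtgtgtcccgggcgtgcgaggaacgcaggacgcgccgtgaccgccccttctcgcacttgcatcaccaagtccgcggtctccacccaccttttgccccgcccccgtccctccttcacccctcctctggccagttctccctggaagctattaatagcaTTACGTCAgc
Dusp1, chr17:26508520-26508722, minus strand, 203 bases outside annotated exons: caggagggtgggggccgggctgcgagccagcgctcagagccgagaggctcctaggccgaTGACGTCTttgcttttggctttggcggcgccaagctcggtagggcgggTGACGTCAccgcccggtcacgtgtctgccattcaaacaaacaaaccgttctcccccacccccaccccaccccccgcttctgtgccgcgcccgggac
Both strands were searched. TGACGTCA was found in 1 of the 8 genes, Dusp1, and in 1.77% of 27025 genes with an entry. A match to it with at most 1 base different was found in 6 of 8 (Fos, Jun, Egr2, Atf3, Dusp1 and Klf6) and in 12.1% of genes, and this motif includes the exact one. The core TGACG, which is part of TGACGTCA, was found in 6 of 8 (Fos, Fosb, Junb, Egr2, Atf3 and Dusp1) and in 19.8% of genes. The word TGACATCA of Jun and Klf6 does not hold it. A CArG box was found for Egr2 (1.62% of genes) and TATAAA for Fos (14.3%). Neither the AP-1 site TGACTCA (5.16% of genes) nor the EGR site GCGTGGGCG (0.622%) was found in the 8 entries. A match describes letters in these windows and is not a measured binding site.

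Facts of the libraries that touch these genes are as follows. Reads assigned to genes, recovered from the FPKM values, ran from 15455406 to 20583321 per library, and the 10 genes had 79 to 131492 reads each per library. The library size implied by the FPKM values was 0.516 to 0.741 of the reads in genes in MPH and 0.934 to 1.22 of them in the other cells. A smaller size gives a higher FPKM, so MPH levels stand higher against the other cells in FPKM than as shares of reads in genes. The preparations carried the markers of their labels, but MPH also carried Kupffer cell markers: their summed FPKM (10 genes) was 9876, 4414 and 2372 in MPH Sham 1, 2 and 3, and 8108 to 9524 in Kupffer Sham. The other preparations were mixed too. Endothelial markers (8 genes) summed to 1248 to 1467 FPKM in Kupffer Sham, against 166 to 747 in MPH Sham. B cell markers (5 genes) summed to 368 to 388 FPKM in Kupffer Sham and 21.8 to 764 in BECs Sham. Stellate cell and fibroblast markers (8 genes) summed to 458 to 811 FPKM in BECs Sham and 803 to 1437 in BECs BDL, against 60.9 to 134 in MPH Sham. Between BDL and Sham in BECs, 3 of these 8 markers had a positive log2 difference (median -0.02), and none was called by limma. None of the fixed cell type markers was at 0 throughout a group. By sex-linked genes, 9 libraries had Xist (13.7 to 59.9 FPKM) and almost no Y-linked transcripts, and the other 9 the reverse, with both kinds in every group. In bulk samples, fewer expressing cells and less RNA per cell cannot be told apart.

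In the Sham livers the 10 genes were most abundant in BECs. Together they held 3.64% to 3.99% of all reads in genes in BECs Sham, 1.94% to 2.10% in Kupffer Sham and 0.276% to 0.503% in MPH Sham, and the 3 groups did not overlap. In BECs Sham, Fos ranked between 7 and 14 among all genes with FPKM of at least 1, Junb between 11 and 15, and Atf3 between 12 and 13. In MPH Sham, Fos ranked between 114 and 251 and Egr2 between 5464 and 9253. The level of the single genes differed widely within a cell type: in BECs Sham the group means ran from 55.8 FPKM for Egr2 to 2037 for Fos.

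**Figure D1:**
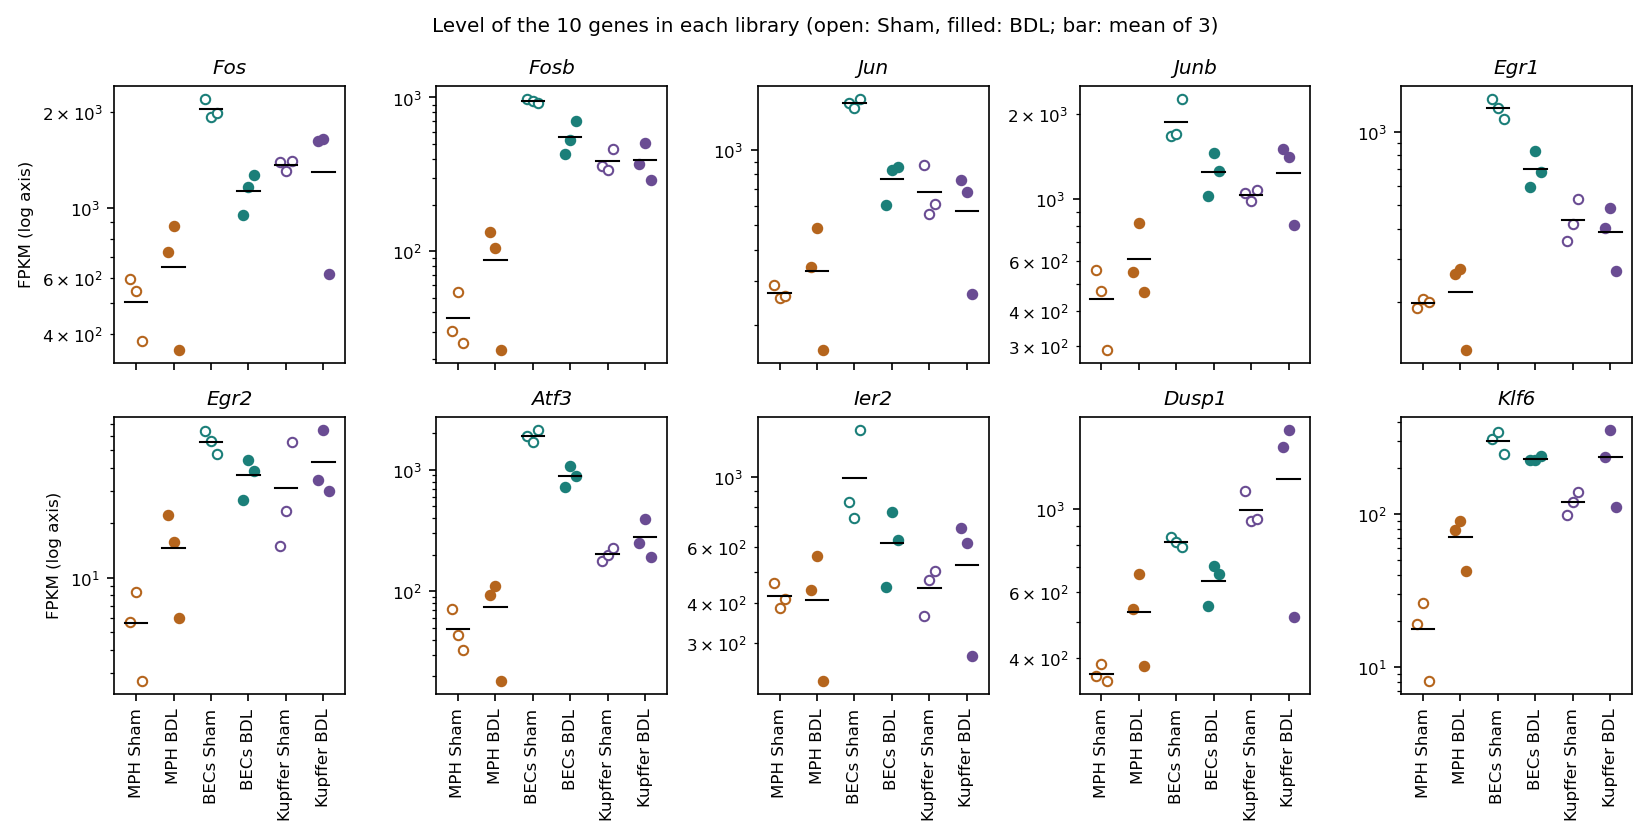
FPKM (log scale) of each of the 10 genes in every library, 1 point per library, by cell type and treatment, with a line at the group mean. By group mean BECs Sham is highest for 9 of the genes, the exception being Dusp1, and the 2 MPH groups are lowest for all 10; MPH BDL 3 and Kupffer BDL 3 fall below the other 2 libraries of their groups.

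Among the AP-1 genes, Fos, the founding member of the family, was at 596, 546 and 379.9 FPKM in MPH Sham 1 to 3, at 2201, 1925 and 1986 in BECs Sham, and at 1393, 1307 and 1398 in Kupffer Sham. Fosb, its close relative, was at 30.3, 54.5 and 25.4 FPKM in MPH Sham, at 984, 952 and 920.0 in BECs Sham and at 361, 336 and 464 in Kupffer Sham. For both genes the order was MPH, Kupffer, BECs, with no overlap between groups. The balance between them differed by cell type: per 100 FPKM of Fos there were 5.09 to 9.98 of Fosb in MPH Sham, 25.7 to 33.2 in Kupffer Sham and 44.7 to 49.5 in BECs Sham.

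Jun, the main partner of FOS, was at 288, 256 and 261 FPKM in MPH Sham, at 1551, 1478 and 1611 in BECs Sham and at 869.6, 557 and 611 in Kupffer Sham. Junb, which can weaken JUN activity in the same dimers, was at 559, 472 and 291 FPKM in MPH Sham, at 1668, 1688 and 2259.9 in BECs Sham and at 1045, 979 and 1075 in Kupffer Sham. Junb was the more abundant of the pair in all 9 Sham libraries. Atf3 set BECs apart most: it was at 71.2, 44.1 and 33.1 FPKM in MPH Sham, at 1903, 1691 and 2141 in BECs Sham and at 178, 198 and 228 in Kupffer Sham. In BECs Sham it stood near the level of Fos, at 86.4 to 108 per 100 FPKM of Fos, against 8.08 to 12.0 in MPH Sham and 12.8 to 16.3 in Kupffer Sham.

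Egr1 was at 189, 207 and 201 FPKM in MPH Sham, at 1364, 1251 and 1128 in BECs Sham and at 357, 418 and 528 in Kupffer Sham. Egr2, known for its part in myelin and in lymphoid and myeloid cells, was the least abundant member, at 5.73, 8.37 and 2.69 FPKM in MPH Sham, 63.7, 56.2 and 47.6 in BECs Sham and 15.0, 23.2 and 55.3 in Kupffer Sham. Its BECs and Kupffer groups overlapped, through the single high library Kupffer Sham 3. Klf6, which is induced in injured liver, was at 19.1, 26.3 and 8.09 FPKM in MPH Sham, at 311, 342 and 249 in BECs Sham and at 98.0, 120.2 and 139.7 in Kupffer Sham.

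Dusp1, alone among the 10 by group mean, was not highest in BECs. It was highest in Kupffer Sham, at 1114, 926 and 939 FPKM, against 841, 814 and 793 in BECs Sham and 358, 386 and 346 in MPH Sham. Ier2 was at 464, 384 and 410.2 FPKM in MPH Sham and at 364, 471 and 506 in Kupffer Sham, groups that overlapped, and at 830.4, 742 and 1406 in BECs Sham.

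The tests of these differences used limma on log2(FPKM + 1), with p-values adjusted over all 14466 genes tested and a call at an adjusted p under 0.05. All 10 genes were lower in MPH than in BECs, where 28.3% of all genes were lower (58.3% called in either direction). All 10 also had no overlap between the 3 MPH and the 3 BECs libraries, as had 30.4% of all genes in that direction. The log2 differences of MPH minus BECs were -5.31 for Atf3, -4.73 for Fosb, -4.13 for Klf6 and -3.20 for Egr2. For Egr1, Jun, Junb and Fos they were -2.64, -2.53, -2.12 and -2.03, and the smallest were -1.19 for Ier2 and -1.17 for Dusp1. The mean of Atf3 in BECs was 38.6 times that in MPH, and that of Dusp1 2.25 times.

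Against Kupffer-like cells, 9 of the 10 genes were lower in MPH (28.1% of all genes were lower, 56.8% called either way), with log2 differences from -1.10 for Egr1 to -3.42 for Fosb. The same 9 did not overlap between the groups, as did not 33.7% of all genes in that direction. Ier2 was not called (log2 difference -0.08, 95% interval -0.71 to 0.54, limma adjusted p = 0.813). It was called lower after scaling each library to its recovered reads (-0.95, limma adjusted p = 0.0235). That scaling moved the median of all genes from 0.01 to -0.53 for MPH minus BECs and from -0.05 to -0.64 for MPH minus Kupffer, and the share of calls that were higher in MPH from 51.5% to 22.7% and from 50.5% to 21.1%.

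BECs exceeded Kupffer-like cells for 7 of the 10 genes (23.9% of all genes were higher in BECs, 43.9% called either way). Atf3 led with a log2 difference of 3.24 (standard error 0.28, limma adjusted p = 1.90e-05), 9.50 times the Kupffer mean. Egr1 (1.53), Klf6 (1.33), Fosb (1.31), Jun (1.21), Ier2 (1.10) and Junb (0.84) were also higher. Fos (0.57, limma adjusted p = 0.0710), Egr2 (1.02, limma adjusted p = 0.110) and Dusp1 (-0.28, limma adjusted p = 0.265) were not called. The 2 groups did not overlap for 9 genes, 8 higher in BECs (31.9% of all genes) and Dusp1 lower (28.0%). Leaving out single Sham libraries gave 5 to 8 called members, and Fosb, Egr1, Jun, Atf3 and Ier2 were among them each time. These 5 were also the ones called without the filter on low values and after scaling to recovered reads, where Junb (limma adjusted p = 0.0955 and 0.151) and Klf6 (limma adjusted p = 0.0560 and 0.0514) were lost. Without single Sham libraries, the genes called higher in BECs ran from 2123 of 13598 to 3812 of 14123. They were 3500 of 39307 without the filter and 3253 of 14564 after scaling.

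Other immediate early genes were also mostly lower in MPH than in BECs in the Sham livers. Of 13 AP-1 and related genes outside the 10, 8 were lower in MPH than in BECs (1 higher) and 9 lower than in Kupffer-like cells. Of 14 other immediate early transcription factors 12 were lower in MPH than in BECs and 10 lower than in Kupffer-like cells, with 1 higher. Of 19 immediate early genes of other kinds 16 were lower in MPH than in BECs, as were 16 of 19 feedback inhibitors, 10 of 14 heat shock genes (2 higher) and 16 of 20 reported targets of AP-1 or EGR1. Against Kupffer-like cells, MPH were lower for 13 of those 19 genes (1 higher), 15 of the 19 feedback inhibitors (2 higher) and 14 of the 20 targets (2 higher). Heat shock genes showed no such balance there, with 2 higher and 2 lower of 14, 9 positive and a median of 0.14. The 26 upstream kinases, receptors and factors had 4 higher and 8 lower in MPH than in BECs, 6 higher and 6 lower than in Kupffer-like cells, and summed levels between 385 and 580.5 FPKM in all 18 libraries. Between BECs and Kupffer-like cells, heat shock genes were higher in BECs for 12 of 14. So were 8 of the 14 other immediate early transcription factors and 10 of the 19 genes of other kinds. AP-1 and related genes had 6 higher and 2 lower of 13, and feedback inhibitors 9 and 2 of 19. The targets had 11 higher and 4 lower of 20, and the upstream list 7 and 2 of 26. Over all 14466 genes, 3460 were higher and 2890 lower in BECs. The background shares are those given above for the 10 genes.

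**Figure D2:**
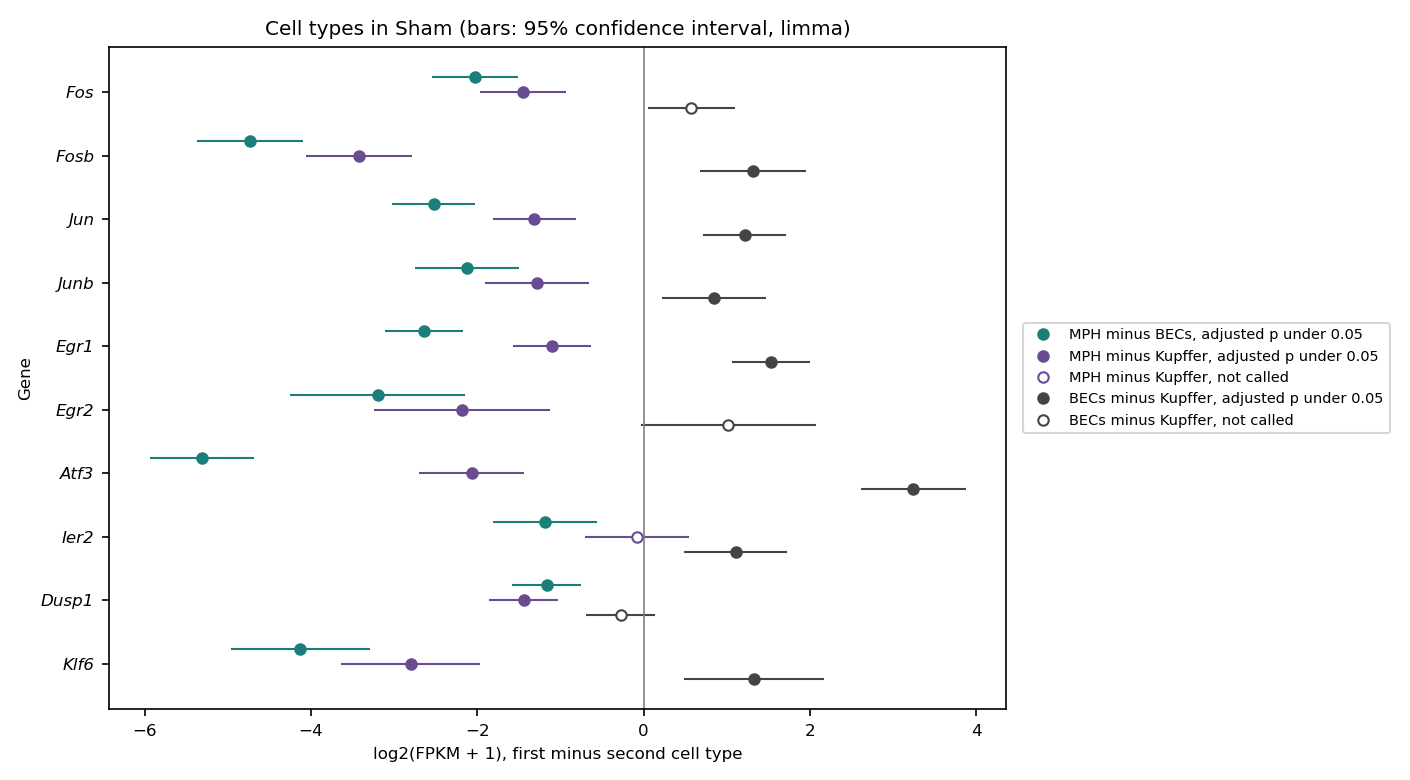
Log2 differences of the 10 genes between cell types in the Sham libraries, with 95% confidence intervals from limma on log2(FPKM + 1). MPH lies below BECs for all 10 genes, Atf3 shows the largest gaps between BECs and the other cells, and the interval of Ier2 between MPH and Kupffer crosses 0.

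After bile duct ligation the genes stood lower in BECs. Atf3, Jun, Fos and Egr1 fell, and the mean of Egr1 fell by 43.8% and that of Atf3 fell by 53.1%. Jun and Fos lay between. The other 6 genes had negative differences that did not pass. The 4 falls of 10 stood beside 4.70% of 13573 genes called lower (7.66% in either direction). The BDL group lay wholly below the Sham group for 9 of the 10 genes, the exception being Ier2, and for 18.8% of all genes. The median log2 difference of the 10 genes was -0.73, against -0.03 over all genes.

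Atf3 was at 1903, 1691 and 2141 FPKM in BECs Sham 1 to 3 and at 729.6, 1068 and 893 in BECs BDL 1 to 3, means of 1911 ± 225 and 897 ± 169 (SD, n = 3). Its log2 difference was -1.10 (standard error 0.21, limma adjusted p = 0.0303). Jun went from 1551, 1478 and 1611 FPKM to 601, 836 and 855, a log2 difference of -1.03 (standard error 0.20, limma adjusted p = 0.0307). For both genes every BDL library stood below every Sham library, and BECs BDL 1 was the lowest. Fos went from 2201, 1925 and 1986 FPKM to 950.3, 1163 and 1269.6 (-0.86, standard error 0.19, limma adjusted p = 0.0401). Egr1 went from 1364, 1251 and 1128 FPKM to 592, 829.7 and 683 (-0.84, standard error 0.19, limma adjusted p = 0.0474).

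Those that did not pass were Fosb, at 984, 952 and 920.0 FPKM in Sham and 427, 532 and 701 in BDL (-0.81, limma adjusted p = 0.0681), and Egr2, at 63.7, 56.2 and 47.6 and then 26.8, 44.4 and 38.3 (-0.62, limma adjusted p = 0.132). Junb was at 1668, 1688 and 2259.9 FPKM and then at 1024, 1447 and 1253 (-0.59, limma adjusted p = 0.146). Their groups did not overlap either. Ier2, with 1 high Sham library, was at 830.4, 742 and 1406 FPKM and then at 448, 776 and 633 (-0.66, limma adjusted p = 0.242). Dusp1 and Klf6 showed the smallest differences, -0.35 and -0.37 (limma adjusted p = 0.243 and 0.231). The share of reads held by the 10 genes was 3.64% to 3.99% in BECs Sham and 1.84%, 2.68% and 2.62% in BECs BDL. Junb per 100 FPKM of Jun was 108 to 140 in Sham and 147 to 173 in BDL.

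The number of falls in BECs depended on single libraries: it was 0 without BECs Sham 1, BECs Sham 2, BECs Sham 3 or BECs BDL 1, it was 1 (Atf3) without BECs BDL 2, and it was 4 (Fos, Fosb, Jun and Atf3) without BECs BDL 3. The difference of Atf3 stayed between -0.96 and -1.24 through those fits. Over all genes, 31 of 13191 were called lower without BECs Sham 1 and 212 of 13206 without BECs Sham 2. Those called lower were 367 of 13254 without BECs Sham 3 and 155 of 13212 without BECs BDL 1. They were 232 of 13203 without BECs BDL 2 and 561 of 13173 without BECs BDL 3. With sex as a term of the model, and after scaling to recovered reads, Jun and Atf3 were the 2 that fell. Those fits called 328 of 13573 and 463 of 13912 genes lower. None of the 10 was called in BECs by limma without the filter on low values or with all 18 libraries in 1 model. There 31 of 33336 and 425 of 15594 genes were called lower.

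**Figure D3:**
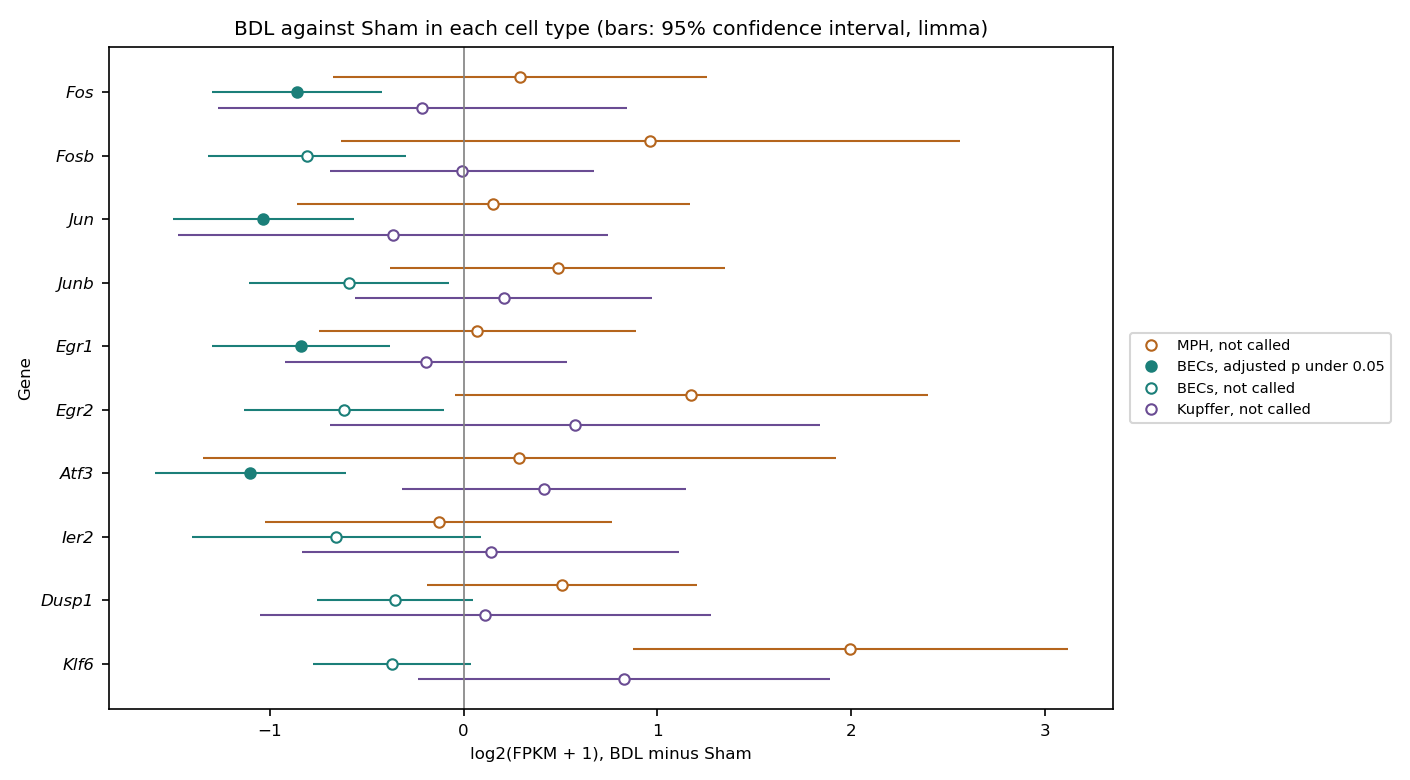
Log2 difference between BDL and Sham for each of the 10 genes in MPH, BECs and Kupffer-like cells, with 95% confidence intervals from limma. In BECs all 10 points lie below 0, in MPH Klf6 stands at 2.00 and the other points lie nearer 0, and in Kupffer-like cells every interval crosses 0.

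Beside these genes, markers of other cell types differed between the BECs groups. The summed FPKM of 8 neutrophil markers was 36.3, 34.0 and 117 in BECs Sham and 302, 381 and 458 in BECs BDL, and 5 of the 7 tested rose. Hepatocyte markers (10 genes) summed to 2964, 1516 and 3617 FPKM and then to 632, 504 and 186, with 1 of 10 called lower. Endothelial markers (8 genes) summed to 158, 182 and 217 FPKM and then to 75.8, 64.2 and 108, with 6 of 8 called lower. Monocyte markers (6 genes) summed to 10.5 to 23.4 FPKM in Sham and 69.4 to 211 in BDL, with 6 of 6 positive and 2, Itgam and F13a1, called higher. Biliary markers (9 genes) summed to 3611 to 4043 FPKM in Sham and 2638 to 3064 in BDL. Their part in the lower levels of the 10 genes was not tested.

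In MPH none of the 10 genes passed (1.57% of 12323 genes did), and 1 of 10 had an unadjusted p under 0.05, as had 22.6% of all genes. That gene was Klf6. It was at 19.1, 26.3 and 8.09 FPKM in MPH Sham 1 to 3 and at 78.9, 90.5 and 42.2 in MPH BDL 1 to 3, a ratio of the means of 3.96. The groups did not overlap, as for 11.8% of all genes in that direction, and Klf6 was the 1 member of which that held. Its log2 difference was 2.00 (95% interval 0.87 to 3.12, limma adjusted p = 0.0824), and it passed with all 18 libraries in 1 model (limma adjusted p = 0.00847). That model called many more genes in MPH, 635 higher and 1291 lower of 15594. Per 100 FPKM of Fos there were 2.13 to 4.81 of Klf6 in MPH Sham and 10.3 to 11.8 in MPH BDL. This ratio was not particular to MPH. It was 7.04 to 9.99 in Kupffer Sham and 14.6 to 21.7 in Kupffer BDL, and 12.5 to 17.7 in BECs Sham and 18.8 to 23.9 in BECs BDL.

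Egr2 was at 5.73, 8.37 and 2.69 FPKM in MPH Sham and at 22.0, 15.6 and 6.03 in MPH BDL (log2 difference 1.18, 95% interval -0.04 to 2.40, limma adjusted p = 0.236). Fosb was at 30.3, 54.5 and 25.4 FPKM and then at 134, 105 and 22.7 (0.96, limma adjusted p = 0.434). In both genes the 2 BDL libraries 1 and 2 stood above the Sham group and MPH BDL 3 did not. Fos was at 596, 546 and 379.9 FPKM and then at 723, 877 and 356 (0.29, 95% interval -0.68 to 1.26). The other members had differences between -0.13 for Ier2 and 0.51 for Dusp1, and the median of the 10 was 0.39 against -0.06 over all genes.

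MPH BDL 3 was the lowest library of its group for all 10 genes, by a mean log2 deviation from the group mean of -0.87. That library also had the lowest summed Kupffer cell markers of the 3 (2091 FPKM, against 4787 and 6435), the highest hepatocyte markers (106043 FPKM, against 47187 and 58665), and was the 1 with Xist. In MPH Sham the same held in part: MPH Sham 3 was the lowest for 7 of the 10 genes, with the lowest Kupffer cell markers (2372 FPKM) and the highest hepatocyte markers (108626 FPKM). The part of these markers in the differences was not tested. Without MPH BDL 3 the members' median was 0.70 and none was called.

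In Kupffer-like cells none of the 10 genes passed, against 3.88% of 12748 genes called. By limma 0 of the 10 had an unadjusted p under 0.05, as had 24.1% of all genes, and 0 were called with voom or with all 18 libraries in 1 model. Klf6 was at 98.0, 120.2 and 139.7 FPKM in Kupffer Sham 1 to 3 and at 236, 355 and 111 in Kupffer BDL 1 to 3 (log2 difference 0.83, 95% interval -0.23 to 1.89, limma adjusted p = 0.304). Atf3 was at 178, 198 and 228 FPKM and then at 249.8, 396 and 194 (0.42, 95% interval -0.32 to 1.15). Dusp1 was at 1114, 926 and 939 FPKM and then at 1458, 1626 and 515 (0.11, 95% interval -1.05 to 1.28). In each, BDL libraries 1 and 2 lay above the Sham group and Kupffer BDL 3 lay within or below it.

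Fos showed the same split, at 1393, 1307 and 1398 FPKM in Sham and 1614, 1641 and 617 in BDL (-0.21). Jun was at 869.6, 557 and 611 FPKM and then at 763, 678 and 267 (-0.37). Kupffer BDL 3 was the lowest of its group for all 10 genes, by a mean log2 deviation of -0.70. It also had lower Kupffer cell markers (3040 FPKM, against 18552 and 12802) and higher neutrophil markers (2324 FPKM, against 893 and 837) than the other 2 libraries of its group. Without it 2 members rose, Dusp1 (0.64, limma adjusted p = 0.0457) and Klf6 (1.29, limma adjusted p = 0.0241), the members' median moved from 0.13 to 0.52, and the genes called in all went from 494 to 2272. In that fit 1147 of 12364 genes were called higher and 1125 lower. The part of the markers was not tested.

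**Figure D4:**
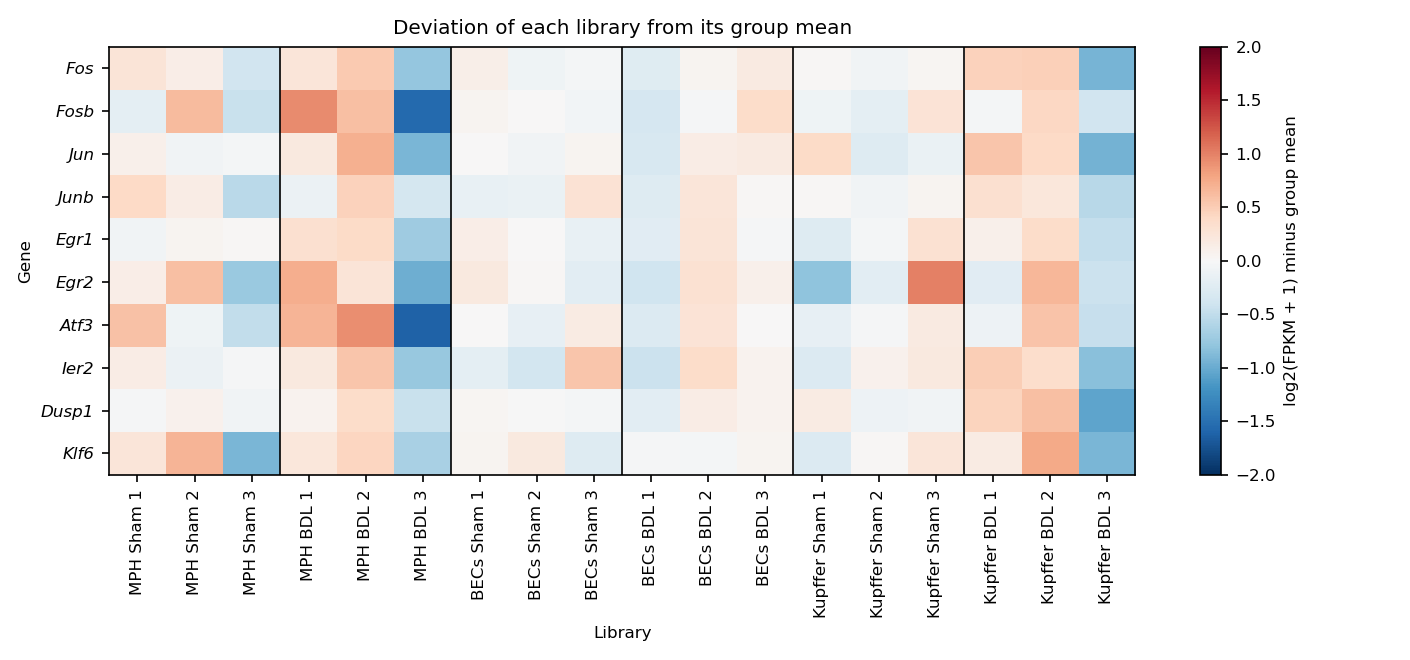
Deviation of each gene from its group mean, as log2(FPKM + 1), in every library (colour scale from -2 to 2). MPH BDL 3 and Kupffer BDL 3 are below the group mean for all 10 genes, and BECs BDL 1 is the lowest of its group for 9 of 10.

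The difference between the responses was tested as an interaction, and 0 members passed by limma in any pair of cell types. Between MPH and BECs (1.60% of 14780 genes called) all 10 differences of MPH minus BECs were positive, with a median of 1.17, where 48.2% of all genes were positive. An unadjusted p under 0.05 was found for 8 of the 10 and for 17.8% of all genes. Klf6 had 2.37 (95% interval 1.17 to 3.56, limma adjusted p = 0.0603) and Egr2 1.79 (95% interval 0.45 to 3.14, limma adjusted p = 0.163). Voom called 0 there too. Without MPH BDL 3, Fosb (2.55), Jun (1.64), Atf3 (2.20) and Klf6 (2.69) were called, beside 106 positive and 81 negative calls among 14674 genes. Without MPH Sham 2, Klf6 was called (2.70), beside 116 positive and 57 negative calls among 14628 genes.

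Between BECs and Kupffer-like cells (3.50% of 14874 genes called) all 10 differences were negative, with a median of -0.80, where 51.6% of all genes were negative. An unadjusted p under 0.05 was found for 3 of the 10 and for 21.4% of all genes. Atf3, lower in BECs BDL and level or higher in Kupffer BDL, had -1.52 (95% interval -2.34 to -0.69, limma adjusted p = 0.0512). Without Kupffer BDL 3, Fos (-1.11), Jun (-1.14), Junb (-1.08), Atf3 (-1.75), Dusp1 (-0.99) and Klf6 (-1.66) were called. In that fit 963 of 14703 genes were called with a negative difference and 810 with a positive one. Between MPH and Kupffer-like cells (0.404% of 14101 genes called) 0 members had an unadjusted p under 0.05 by limma, against 19.0% of all genes, and the largest difference was that of Klf6 (1.17, 95% interval -0.37 to 2.70). With the number in the titles as a replicate block, 468 genes in place of 57 were called there, and again 0 of the 10. These 3 tests share libraries, so they are not independent of each other.

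Other genes of the same program were read from fixed lists. Their counts stand beside the shares of all genes called: 2.96% higher and 4.70% lower in BECs, 0.714% and 0.860% in MPH, and 1.47% and 2.40% in Kupffer-like cells. In BECs 1 of 14 or 1 of 19 genes is near those shares. In BECs, 2 of 13 AP-1 and related genes outside the 10 fell after ligation: Jund, the JUN family member with steady expression, from 549.9 ± 102 to 288 ± 24.8 FPKM (-0.92), and Atf4, the factor of the integrated stress response, (-0.63). Srf, the gene of serum response factor, fell from 159 ± 1.67 to 65.5 ± 12.5 FPKM (-1.28), 1 of 14 other immediate early transcription factors. Of 19 immediate early genes that encode no transcription factor 5 fell, among them Cyr61, a matrix-associated signalling protein, from 2040.0 ± 44.8 to 844 ± 180.2 FPKM (-1.29), Arc (-1.78), Ier5l (-1.07) and the small GTPase gene Rhob (-0.79); the fifth, named after its value was seen, was Errfi1 (-1.01), an inhibitor of EGF receptor signalling. None of 26 upstream kinases, receptors and factors was called, with Mapk9 nearest (-0.30, limma adjusted p = 0.176; 9 of 26 positive).

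Inhibitors that these pathways induce against themselves split in BECs: among 19, the MAP kinase phosphatase gene Dusp8 (-1.01) and Spry4 (-0.58) fell and Tnfaip3, which restrains NF-kB, rose (0.94). Heat shock genes, another known mark of cell isolation, had negative differences for 14 of 14, with Dnajb1 called (-0.81, from 195 ± 23.9 to 110.5 ± 15.1 FPKM) and a median of -0.48. Reported targets of AP-1 or EGR1 went the other way, with 7 of 20 higher and 1 lower, led by the chemokine genes Cxcl2 (2.68) and Ccl2 (2.44), the metalloproteinase gene Mmp9 (1.99), which is also a neutrophil marker, and Timp1 (2.97). The target that fell, named after its value was seen, was the growth factor gene Vegfa (-1.11). Without each BECs library in turn, 5 of the 28 named genes of these and the marker lists kept their call every time (Cxcl2, Csf3r, F13a1, Itgam and Oit3).

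In MPH, Fosl2, an AP-1 subunit, rose from 5.01 ± 1.99 to 21.2 ± 6.55 FPKM (1.90, limma adjusted p = 0.0463), 1 of 12 AP-1 and related genes tested. Per1, a clock gene that also answers acute stimuli, rose (1.93), as did Dusp8 (1.47), each 1 of 19. Among 12 other immediate early transcription factors 0 passed by limma, with Myc nearest (1.51, limma adjusted p = 0.0810). Of 18 targets tested 5 rose, among them Timp1 (3.77), Thbs1 (3.76) and Cxcl2 (2.95), and also the cytokine gene Il6 (2.87), which was named after its value was seen. Monocyte markers moved beside them, with F13a1 (1.96) and Chil3 (3.01) higher, and their summed FPKM went from 10.2 to 18.3 in Sham to 72.5 to 161 in BDL. Neutrophil markers were positive for 7 of 7 tested (median 1.34), with 0 called by limma. Biliary markers (9 genes) summed to 26.2 to 52.6 FPKM in Sham and 71.3 to 75.2 in BDL, with Krt7 called higher (1.13). Gzma, a T and NK cell marker, was called lower (-1.20). Stellate cell and fibroblast markers (8 genes) summed to 60.9 to 134 FPKM in Sham and 155 to 309.7 in BDL, with no overlap, 8 of 8 positive (median 1.12) and none called by limma. The part of all these marker lists was not tested. Without each MPH library in turn, 2 of the 11 named genes of the lists kept their call every time, Timp1 among them.

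In Kupffer-like cells, Maff, a small partner of AP-1 factors, rose from 11.4 ± 1.78 to 22.3 ± 2.66 FPKM (0.91, limma adjusted p = 0.0433), and Nfil3 rose from 13.0 ± 2.80 to 59.6 ± 7.57 FPKM (2.12, limma adjusted p = 0.0208). Each was 1 of 13 tested in its list. Spred2, an inhibitor of MAP kinase signalling, fell (-0.85), as did the receptor gene Erbb2 (-0.99) and the SRF partner gene Elk3 (-1.64). Thbs1 (2.68) and Cxcl2 (1.93) rose among 19 targets, and Cxcl2 was thus called higher in all 3 cell types. Heat shock genes were not called in MPH or Kupffer-like cells (medians -0.12 and -0.10), with Dnaja1 (-0.75, limma adjusted p = 0.131) and Hsph1 (-0.92, limma adjusted p = 0.0869) nearest. Endothelial markers fell for 3 of 8 and neutrophil markers rose for 3 of 7 in the same Kupffer libraries. Monocyte markers were higher for 2 of 6 there. Stellate cell and fibroblast markers summed to 39.3 to 98.8 FPKM in Sham and 154 to 227 in BDL, with none of 8 called by limma. Hepatocyte markers were positive for 10 of 10 (median 1.89), with sums of 437 to 916 FPKM in Sham and 946 to 3604 in BDL. T and NK cell markers were positive for 0 of 7 (median -1.27) and B cell markers for 0 of 5 (median -2.14). No hepatocyte, T and NK or B cell marker was called by limma. The part of all these markers was not tested. Without each Kupffer library in turn, 0 of the 15 named genes of the lists kept their call every time.

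**Figure D5:**
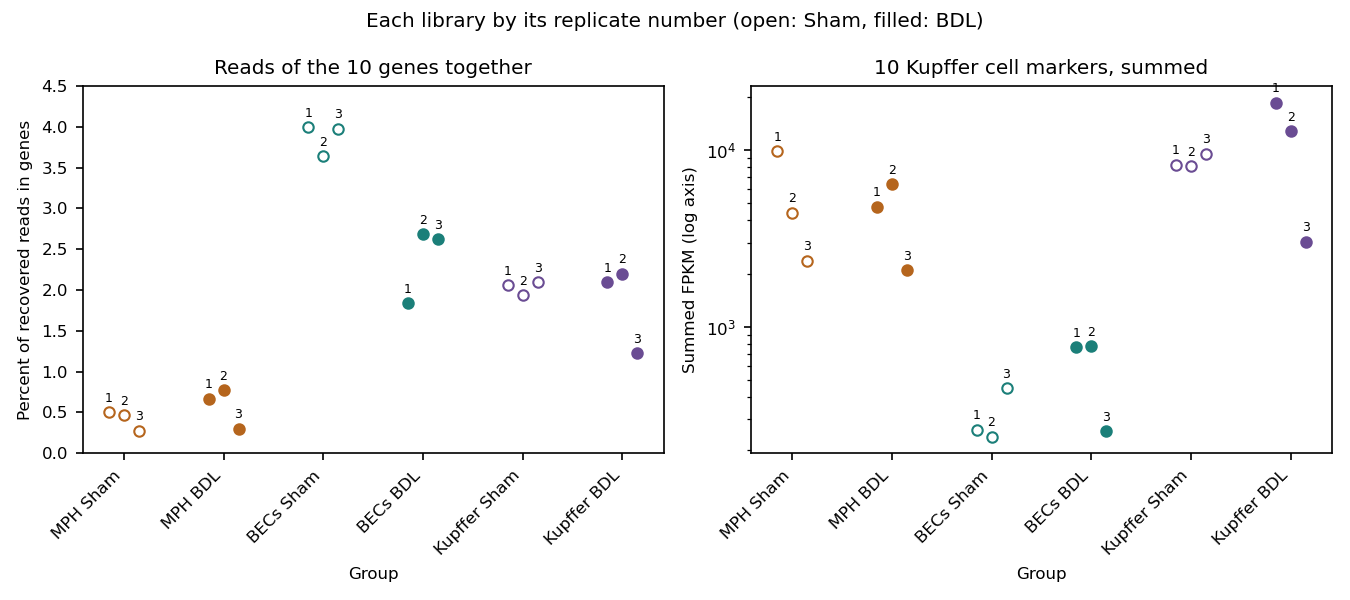
Left, percent of the recovered reads in genes held by the 10 genes together in each library, by group. Right, the summed FPKM (log scale) of 10 Kupffer cell markers in the same libraries; digits are replicate numbers, open points Sham and filled points BDL. The share is highest in BECs Sham, at 3.64% to 3.99%, and lowest in MPH, at 0.276% to 0.773%.

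Within the groups the 10 genes mostly moved together from library to library, least so in BECs. With each group centred on its mean, the 45 pairwise correlations over 18 libraries had a median of 0.737 and ran from 0.383 for Jun with Egr2 to 0.919 for Fos with Jun. They are given as a description, since the libraries share the scaling of their columns. The median was 0.850 in the 6 MPH libraries and 0.805 in the 6 Kupffer libraries. In the 6 BECs libraries it was 0.592, with a range from -0.749 to 0.983. Fos had the highest mean correlation with the other members (0.809) and Egr2 the lowest (0.612). Such correlation was not particular to the 10 genes: Hpgd, named below, had a mean of 0.828 with them. MPH BDL 3 and Kupffer BDL 3 enter with mean log2 deviations of -0.87 and -0.70, and their weight in the correlations was not tested.

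Among 7657 other genes with a mean of at least 5 FPKM, those whose deviations followed the members most were Hpgd, the prostaglandin dehydrogenase, with a mean correlation of 0.828 over the 18 libraries, the potassium channel gene Kcnk6 (0.796), the kinesin gene Kifc3 (0.791), Il18bp, which encodes the decoy receptor of interleukin 18, (0.782), and Clstn1 (0.782). None of these 5 was in a fixed list. Their group means did not follow one order: Hpgd was at 304 FPKM in Kupffer Sham and 26.8 in BECs Sham, and Kifc3 at 12.1 and 81.7.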

How the data were processed

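Per the labels' protocols, total RNA was extracted with TRIzol, and libraries of polyadenylated RNA were prepared with a VAHTS Universal V6 kit. The submitters' processing notes name CASAVA 1.8, fastp, HISAT2 2.0.5, featureCounts 1.5.0-p3, DESeq2 1.20.0 and GRCm38 (mm10). The authors deposited FPKM for 54532 genes in 18 columns. The sources used here do not give annotation release, strandedness or the fastp version. Whole reads were recovered from FPKM and GENCODE M21 exon lengths for 52718 of 53710 genes (98.2%, tolerance 0.02), and the implied library sizes ran from 8640613 to 22122618.

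The members and all gene lists were chosen with earlier results of these data known, as were the tests. The deposited FPKM were taken to log2(FPKM + 1), and limma 3.58.1 (R 4.3.3) tested the genes that reached FPKM 1 in 3 or more libraries of a fit with eBayes ( trend, robust; 2-sided; Benjamini-Hochberg over all genes). BDL was compared with Sham in 6 libraries per cell type, responses as an interaction in 12, cell types in the 9 Sham libraries. Besides the 10 members, up to 4 called genes per list and cell type with the smallest p are named (if none, the nearest), and the 5 genes most correlated with the members. Other settings were a pseudocount of 0.1, no filter, scaling to recovered reads, voom on recovered reads, all 18 libraries in 1 model, and leaving out each library; a sex term (Y-linked genes against Xist) was chosen after seeing the data. The pipeline was tested on simulated data. A gene of the target list is not reported here.

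Replicates are numbered in label order. MPH and Kupffer libraries share 3 title numbers. Their deviations from the group means correlated at 0.230, 0.337 and 0.305 over 14097 genes, and their sex-linked genes matched. MPH and Kupffer libraries of the same treatment without a shared number correlated at -0.338 to 0.215. The number was taken as a pairing and fitted through duplicateCorrelation (statmod 1.5.0) as an alternative setting. The main tests treated these libraries as independent.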

Additional observations from a re-analysis of the deposited data

How the results depend on the processing

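By members called, the count in Sham between MPH and BECs (10) held under every alternative, and that between MPH and Kupffer (9) under all but scaling to recovered reads (10, with Ier2), and so did 0 between MPH and Kupffer responses, replicate block included. In MPH 1 member was called with all 18 libraries in 1 model. In BECs 0 were called without the filter or with 18 libraries, and 2 after scaling to recovered reads or with the sex term. Without single libraries the members called ran from 0 to 4 in BECs, 0 to 2 in Kupffer, 0 to 4 between MPH and BECs responses and 0 to 6 between BECs and Kupffer responses. Fitting fewer libraries gives less power by construction; otherwise the cause was not tested.

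Over all genes, MPH calls (194) became 117 with a pseudocount of 0.1, 18 without the filter, 96 after scaling, 124 with voom and 1926 with 18 libraries, and 8 to 77 without single libraries. BECs calls (1040) became 81 without the filter, 576 with the sex term and 86 to 1033 without single libraries. Kupffer calls (494) became 323, 0 and 1117 with the pseudocount, no filter (0 members too by limma) and 18 libraries, 1 with the sex term and 0 to 2272 without single libraries. Calls between MPH and BECs responses (237) became 112, 86 and 107 with the pseudocount, no filter and voom, and 51 to 338 without single libraries. Between MPH and Kupffer (57) they became 11, 24, 7 and 9 with the pseudocount, no filter, scaling and voom, 36 with the sex term, 468 with the replicate block and 2 to 382 without single libraries. Between BECs and Kupffer (520) they became 318, 13 and 238 with the pseudocount, no filter and voom, 244 with the sex term and 38 to 1773 without single libraries. The replicate block changed no other member's call.

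No called member changed sign. Among uncalled ones in Kupffer, Fosb became 0.0021 with voom, and Ier2 and Dusp1 became -0.066 and -0.094 after scaling. Between MPH and Kupffer responses Atf3 (-0.13) became 0.13 after scaling and 0.10 with the replicate block, and Ier2 between these cells in Sham became 0.037 with the sex term. Without single libraries the log2 differences in MPH ran from -0.20 to 0.61 for Jun, -0.12 to 0.43 for Egr1, -0.18 to 1.10 for Atf3 and -0.41 to 0.25 for Ier2. In Kupffer they ran from -0.45 to 0.25 for Fos, -0.22 to 0.18 for Fosb, -0.65 to 0.11 for Jun, -0.38 to 0.047 for Egr1, -0.11 to 0.56 for Ier2 and -0.19 to 0.64 for Dusp1. Between MPH and Kupffer responses they ran from -0.00088 to 0.48 for Junb, -0.59 to 0.68 for Atf3, -0.69 to 0.11 for Ier2 and -0.13 to 0.70 for Dusp1, and in Sham from -0.22 to 0.013 for Ier2. Scaling to recovered reads moved the share of calls that were higher from 38.7% to 52.9% in BECs and from 38.1% to 21.1% in Kupffer.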
